A study of Mus musculus with 6 samples.

Results

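The keratins and keratin-associated proteins of mouse liver were followed across 6 RNA-seq libraries. All rows of the raw count table whose symbol was Krt or Krtap followed by a number were taken, which gave 110 of 40803 genes, 55 keratins and 55 keratin-associated proteins. The family was picked because many of its members had lower measured counts after knockdown of Hnf1aos1, so they were in effect chosen by their measured fold change, and their differences between the groups are a description and no test of the family. The livers came from male C57BL/6J mice that were injected through the tail vein at about 6 weeks of age. They received a recombinant adeno-associated virus of serotype 8 (rAAV8), and the livers were collected 4 weeks after injection. The virus carried a short hairpin RNA driven by the U6 promoter together with an EGFP reporter, so all mice had virus, hairpin and reporter, and no untreated liver was among the libraries. The rAAV8-Scramble group held 3 mice with a scrambled hairpin, and the rAAV8-Hnf1aos1 group held 3 mice with a hairpin against Hnf1aos1, a long noncoding RNA of hepatocytes, with 1 library per mouse. They are called scramble and knockdown replicates 1 to 3 here. The knockdown was partial in this count table: Hnf1aos1 had normalised counts of 512, 491 and 620 in the scramble libraries, against 278, 258 and 433 after knockdown. Its log2 fold change was -0.74 (SE 0.195), and it was not called by edgeR's quasi-likelihood test (adjusted p = 0.0625 over 16327 genes). Knockdown replicate 3 kept 80.0% of the scramble mean of Hnf1aos1, against 51.5% in replicate 1 and 47.8% in replicate 2.

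Keratins build the intermediate filaments of epithelial cells, and each filament pairs an acidic type I keratin with a basic type II keratin. Hepatocytes rely on the pair Krt8 and Krt18, and the cells of bile ducts add Krt7 and Krt19. The epidermis uses other pairs, such as Krt5 with Krt14 in its basal layer and Krt1 with Krt10 above it. The hair follicle has further sets for its root sheaths and for the hair shaft, where the keratin filaments lie in a matrix of sulfur-rich or glycine- and tyrosine-rich keratin-associated proteins. Liver cells are not known as a source of the epidermal and hair sets. By these roles the 110 members were split into 5 liver keratins, 20 keratins of epidermis and other stratified epithelium, 9 of the hair follicle sheaths, 16 of the hair shaft, 55 keratin-associated proteins and 5 other keratins.

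Promoter letters were read first. The bases before the listed transcription start are shown, because a TATA box (TATAAA, in capitals) lies there in many of the hair genes. For each class except the other keratins, they are given for the 2 members with the highest counts among those with a RefSeq promoter entry (GRCm38.p6). Each is the 60 bases before the start, read 5′ to 3′ on the strand of the gene.
Krt8, liver keratin of type II, chr15:102004343-102004402, minus strand: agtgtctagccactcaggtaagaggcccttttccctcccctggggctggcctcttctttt
Krt18, liver keratin of type I, chr15:102028156-102028215, plus strand: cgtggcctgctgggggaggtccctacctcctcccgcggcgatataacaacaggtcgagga
Krt10, suprabasal epidermis, chr11:99389365-99389424, minus strand: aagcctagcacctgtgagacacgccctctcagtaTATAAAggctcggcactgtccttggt
Krt77, epidermal keratin related to Krt1, chr15:101869706-101869765, minus strand: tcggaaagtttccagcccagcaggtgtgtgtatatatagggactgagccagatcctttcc
Krt71, inner root sheath, chr15:101743098-101743157, minus strand: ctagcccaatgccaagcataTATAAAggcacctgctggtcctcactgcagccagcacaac
Krt25, inner root sheath, chr11:99322952-99323011, minus strand: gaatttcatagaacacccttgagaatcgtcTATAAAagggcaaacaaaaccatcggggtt
Krt34, hair shaft, chr11:100041555-100041614, minus strand: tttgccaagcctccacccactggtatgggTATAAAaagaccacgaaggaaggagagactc
Krt33b, hair shaft, chr11:100029869-100029928, minus strand: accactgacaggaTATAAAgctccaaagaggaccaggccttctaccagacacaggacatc
Krtap15, keratin-associated protein, chr16:88828949-88829008, plus strand: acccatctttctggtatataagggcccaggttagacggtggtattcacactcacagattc
Krtap3-1, keratin-associated protein, chr11:99566631-99566690, minus strand: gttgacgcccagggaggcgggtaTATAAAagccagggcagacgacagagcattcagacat
In Krt8 the letters TATAAA run across the listed start and so fall outside the stretch shown. TATAAA on either strand was found in 60 of 87 member promoters (69.0%, from 86 genes) and in 13.6% of 32851 promoters of all genes, in windows from 250 bases before to 50 after the start. By class the share was 82.0% of 50 promoters of keratin-associated proteins, 87.5% of 8 sheath keratins and 66.7% of 9 shaft keratins. It was 28.6% of 14 epidermal keratins, 1 of 4 liver keratins and 1 of 2 other keratins. On the gene's own strand, with its first base 15 to 40 bases before the start, it was found in 49.4% of member promoters and 1.99% of all promoters. A second motif, TGANTCA, the letters bound by AP-1 factors, was in 13.8% of member promoters and 7.81% of all promoters on either strand. These are matches of letters, neighbouring members are copies of one another, and no binding was measured.

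The members also lie together in the genome. Of the 109 members with a position in the GENCODE annotation of GRCm38, 50 were on chromosome 11 (27 keratins and 23 keratin-associated proteins, from 99232761 to 100269871), 27 keratins on chromosome 15 (from 101347444 to 102032027), and 23 keratin-associated proteins on chromosome 16 (from 88610705 to 89571183). The other 9 keratin-associated genes were split between chromosome 7 with 5, chromosome 10 with 3 and chromosome 1 with 1. Krt8 and Krt18 are neighbours on chromosome 15, 23698 bases apart, and Krt18 is the type I keratin placed in that type II cluster. All 21 members on chromosome 11 with enough reads for the model were lower after knockdown in their fitted value, as were all 5 on chromosome 16. So were 14 of 16 on chromosome 15, where the other 2 were Krt8 and Krt18. Over all genes 8172 of 16327 were lower. The members were picked as lower, so nothing is read from these counts.

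Gene totals ran from 14704746 to 19462398 counts per library, and ERCC spike-in transcripts made up 1.18 to 1.52% of the counts. 2 libraries stood apart in the keratins. Knockdown replicate 1 had the highest Krt8 and Krt18, and knockdown replicate 3 was the knockdown library that held hair keratins in number. The class sums, the leading members and some of the list genes that rest on either are therefore also given without it. Across all genes 505 were called higher and 527 lower at an adjusted p under 0.05.

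Of the 110 members, 11 had no count in any library, 35 had fewer than 10 counts over all 6 libraries, and 43 had enough counts to be fitted. The members that could be fitted got there mostly through the scramble group, where they are high, and they were picked as lower after knockdown, so the counts of calls that follow were fixed in good part by that choice. They are printed beside the shares over all genes, and nothing is read from them. Of the 43, 41 had a log2 fold change below 0 and 2 above 0. In the edgeR fit over all genes, 27 stood among the genes called lower and 0 among those called higher, where 3.23% of all tested genes were called lower and 3.09% higher. At an unadjusted p under 0.05 there were 37 lower and 1 higher, where 11.4% of all tested genes were lower and 12.0% higher. In 38 members every knockdown library was below every scramble library, as in 13.7% of all tested genes, and in 2 members, Krt8 and Krt18, every knockdown library was above, as in 15.2% of all tested genes. The count of 27 moved with single libraries, and so did the 527 lower calls over all genes. It was 45 of 866 without knockdown replicate 3 and 13 of 183 without knockdown replicate 2. Without scramble replicate 2 it was 14 of 222, and without scramble replicate 3 it was 6 of 65. DESeq2 called 29 lower and 0 higher.

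**Figure D1:**
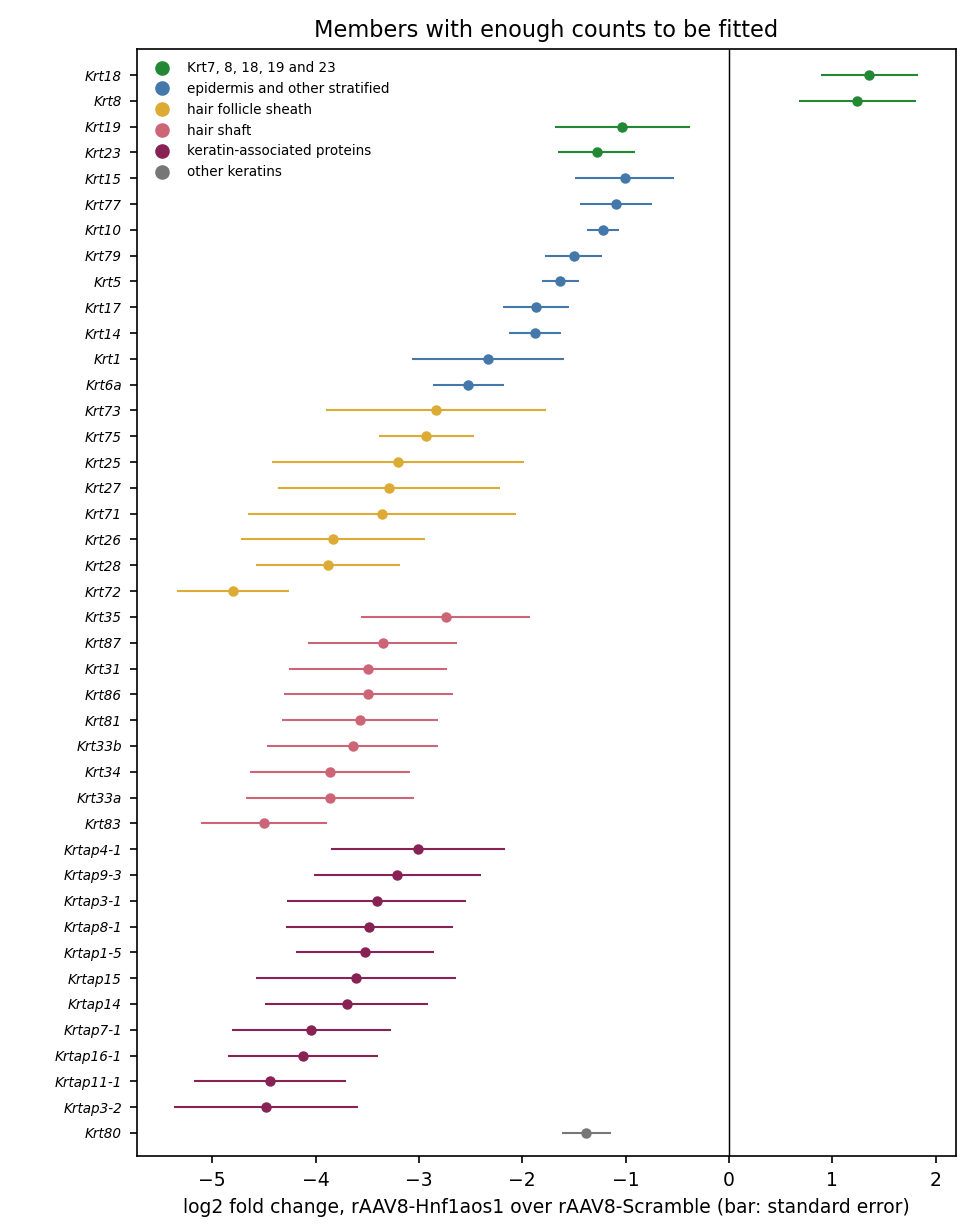
Log2 fold change of rAAV8-Hnf1aos1 over rAAV8-Scramble (horizontal axis) for the fitted members that are named here, with bars for the standard error and colours for the classes. Krt8 and Krt18 lie above 0, and the hair follicle and keratin-associated genes lie between -4.80 and -2.74.

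In the scramble livers Krt8 and Krt18 had the highest levels per length of all members. Krt8, the type II keratin of simple epithelia, averaged 116 TPM (SD 6.70, n = 3) and Krt18, its type I partner, 113 TPM (SD 11.2, n = 3), and their ranges of 110 to 124 and 105 to 126 TPM overlapped. Krt71 came next with 29.4 TPM (SD 8.51), followed by Krt5 with 20.5 (SD 4.45), Krtap7-1 with 16.6 (SD 6.13), Krt77 with 16.4 (SD 6.71), Krt25 with 16.0 (SD 5.77) and Krt27 with 15.3 (SD 3.49). From Krt71 downwards each of these overlapped its neighbour in the order. TPM depends on the gene length that was used. In scramble replicate 1 the value of 1 TPM stood for 79.8 reads of Krt10. It stood for 4.57 to 25.1 reads of the other 27 members with at least 100 counts. The TPM of Krt10 is therefore not ranked against those of other genes here, and a ratio to it is compared only between libraries.

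Krt8 and Krt18 were higher in every knockdown library than in any scramble library. Krt8 had 1507, 1478 and 1506 counts in scramble replicates 1 to 3 and 7330, 2462 and 2252 in knockdown replicates 1 to 3. Krt18 had 1142, 1049 and 1187 counts in the scramble libraries, against 5520, 2376 and 1955 after knockdown. The scramble libraries were close to each other, and knockdown replicate 1 stood far above knockdown replicates 2 and 3. After normalisation Krt8 was at 435, 145 and 127% of the scramble mean in knockdown replicates 1, 2 and 3, and Krt18 at 435, 187 and 146%. The log2 fold change was 1.24 (SE 0.566) for Krt8 and 1.36 (SE 0.472) for Krt18. Without knockdown replicate 1 it was 0.44 for Krt8 and 0.73 for Krt18. In that fit 2 keratin members were called higher, instead of 0, among 293 genes called higher over all genes. The pair kept similar levels: the ratio of Krt8 to Krt18 in TPM was 1.02, 1.09 and 0.984 in the scramble libraries, against 1.03, 0.804 and 0.893 after knockdown.

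The keratins known from bile ducts were scarce and were not higher with that pair. Krt23, a type I keratin known from ductular reactions in injured mouse liver, had 22, 40 and 29 counts in the scramble libraries, against 11, 11 and 21 after knockdown. Each knockdown library was lower than each scramble library in counts, with a log2 fold change of -1.28 (SE 0.373). Krt19, a type I keratin of bile duct cells, had 30, 12 and 16 counts against 15, 16 and 1, and Krt7, their type II keratin, had 3, 6 and 12 against 4, 9 and 5. Both overlapped between the groups, and the single count of Krt19 was in knockdown replicate 3. Together Krt7, Krt19 and Krt23 had 55, 58 and 57 counts in the scramble libraries, against 30, 36 and 27 after knockdown, a normalised mean of 60.9 (SD 3.93) against 29.1 (SD 4.90, n = 3).

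**Figure D2:**
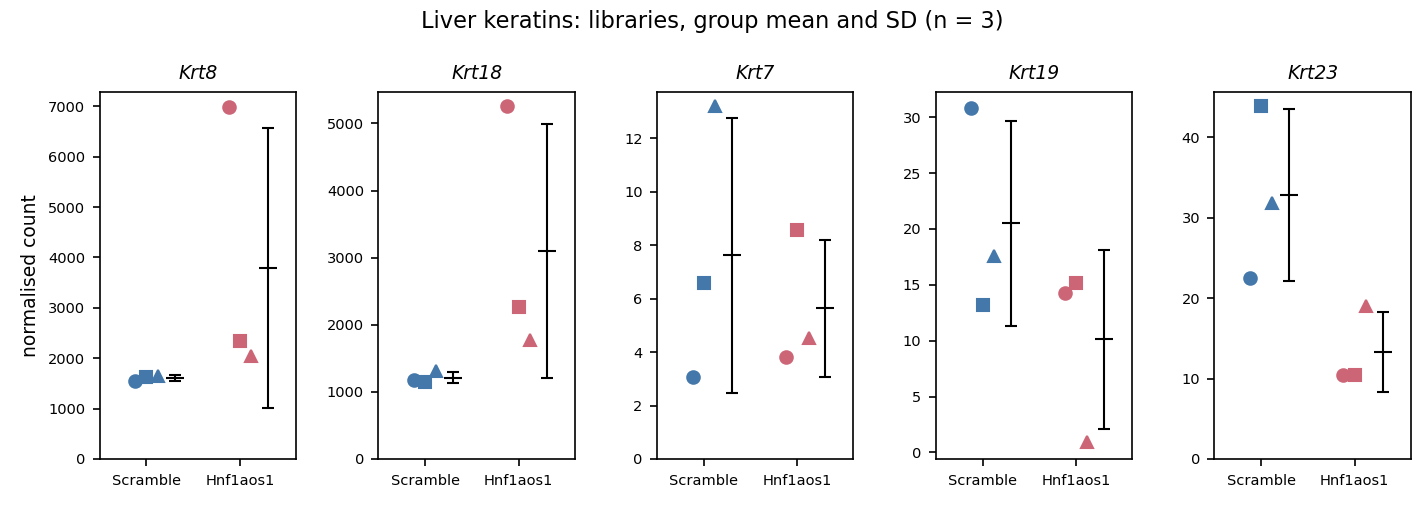
Normalised counts (vertical axes, each with its own scale) of the 5 liver keratins in each library, with circles, squares and triangles for replicates 1, 2 and 3, blue for rAAV8-Scramble and red for rAAV8-Hnf1aos1, and black bars for the mean and SD of 3 libraries. Krt8 and Krt18 are highest in knockdown replicate 1, while Krt7 and Krt19 overlap between the groups.

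Other genes of bile ducts were read in the same libraries. Of 16 bile duct genes, 13 were tested, with 6 of the 13 below 0 and a median log2 fold change of 0.08. The median over all tested genes was -0.0004. In this list 2 were called lower and 0 higher, where 3.23% of all tested genes were called lower and 3.09% higher. Among those called was Cldn4, a tight junction protein that is also made in skin (log2 fold change -2.06, SE 0.392). It could be fitted only through the scramble group, with 21, 30 and 37 counts against 5, 9 and 10, so its call is a description. Spp1, osteopontin, had 311, 257 and 266 counts in the scramble libraries, against 2266, 448 and 566 after knockdown, and Epcam had 18, 24 and 37 against 88, 10 and 17. Knockdown replicate 1, which had the highest Krt8 and Krt18, also had the highest Spp1 and Epcam. Spp1 was not called (log2 fold change 1.79, adjusted p = 0.274), and without that library it was called higher at 0.65 (adjusted p = 0.0148). Epcam turned from 0.35 to -1.18 without it and was called in neither fit. Cdh1, E-cadherin, had the highest mean of the list and was not called (log2 fold change 0.33, adjusted p = 0.0604). Whether these values have a part in the level of Krt8 and Krt18 was not tested.

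The partners and handlers of keratin filaments were described next, from a list of 21 linkers, desmosome proteins and proteins of keratin aggregates. All 21 were tested, and 12 were below 0. Of the 21, 2 were called lower and 1 higher, where 3.23% of all tested genes were called lower and 3.09% higher. Evpl, envoplakin of the cornified envelope, had a log2 fold change of -1.82 (SE 0.260), and Pkp3, a desmosomal plakophilin, one of -1.20 (SE 0.264, adjusted p = 0.0268 by edgeR), and both were lower. Tgm2, the transglutaminase that crosslinks keratin aggregates, was higher by 0.63 (SE 0.136, adjusted p = 0.0274). Hspb1, a small heat shock protein that binds keratins, had 399, 384 and 348 counts against 1931, 974 and 796, and it was not called (log2 fold change 1.52, adjusted p = 0.102). Ppl, periplakin, had 231, 232 and 286 against 1099, 386 and 274 counts, with the highest value again in knockdown replicate 1. Without that library the log2 fold change of Ppl was 0.19 instead of 1.04 (adjusted p = 0.625), and that of Hspb1 was 1.02 and called higher (adjusted p = 0.00158). Plec, plectin, which ties keratin to hemidesmosomes and other filaments, had a log2 fold change of 0.39 (SE 0.135) and was not called. The 2 most abundant genes of the list were the chaperone Hspa8 (16603, 11897 and 12937 counts against 3567, 5982 and 14479, adjusted p = 0.357) and the cytoskeletal linker Macf1 (-0.13, adjusted p = 0.398). Of 16 intermediate filament genes other than keratins, 7 were tested and 0 were called by edgeR, 2 had an unadjusted p under 0.05, and the 2 most abundant were Lmna with 0.29 and Vim with -0.45 on the log2 scale. With library sizes set by the spike-ins, 9 genes of the linker list were called instead of 3. That setting shifted all genes: 3033 were called higher and 360 lower, instead of 505 and 527, and the median log2 fold change was 0.20.

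The epidermal keratins were lower in all 3 knockdown libraries, to a like extent. Their summed counts were 1806, 2052 and 1667 in the scramble libraries, against 671, 859 and 802 after knockdown, which after normalisation was 32.3, 41.2 and 36.7% of the scramble mean. The normalised sum was 1980 (SD 236) in the scramble and 728 (SD 88.2) in the knockdown group (n = 3), a log2 ratio of -1.44. Of the 20 members, 9 were fitted, all 9 had a log2 fold change below 0, from -2.52 to -1.01. The number of the 20 with any count was 13, 15 and 14 in the scramble libraries, against 15, 13 and 12 after knockdown, and the number with at least 5 counts was 12, 11 and 13 against 9, 9 and 9. In bulk tissue, fewer cells of a type and less RNA per cell cannot be told apart.

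Among the basal keratins, Krt5, the type II keratin of the basal layer, had 260, 382 and 323 counts in the scramble libraries, against 96, 124 and 140 after knockdown (log2 fold change -1.63, SE 0.183). Its partner Krt14 had 255, 168 and 133 counts against 45, 50 and 77 (-1.88, SE 0.252). The groups did not overlap in either. Krt15, a type I keratin of basal and follicle stem cells, had 77, 211 and 139 counts against 70, 120 and 54. Krt15 overlapped between the groups, since knockdown replicate 2 was above scramble replicate 1.

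Among the suprabasal keratins, Krt10, the type I keratin of the spinous layers, had 441, 495 and 359 counts in the scramble libraries, against 212, 242 and 180 after knockdown (log2 fold change -1.22, SE 0.153). Krt1, its type II partner, had 234, 62 and 42 counts against 27, 26 and 22 (-2.33, SE 0.734). Scramble replicate 1 set the mean of Krt1: the ratio of Krt1 to Krt10 in TPM was 2.29 there and 0.463 to 0.549 in the other 5 libraries. The size of this ratio rests on the gene length used for Krt10, so only its difference between libraries is read. Krt77, a type II keratin close to Krt1, had 198, 460 and 361 counts against 156, 218 and 181, and was lowest among the scramble libraries in replicate 1, where Krt1 was highest. The groups overlapped in Krt77, with a log2 fold change of -1.09 (SE 0.346).

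Keratins of stressed or follicular epidermis were lower too. Krt17, a type I keratin of the outer root sheath and of wounded skin, had 118, 129 and 139 counts in the scramble libraries, against 26, 27 and 69 after knockdown (log2 fold change -1.87, SE 0.320). Krt79, a type II keratin of the hair canal, had 100, 76 and 98 counts against 24, 31 and 56 (-1.50, SE 0.275). In both, no knockdown library reached a scramble library, and knockdown replicate 3 was the highest of its group. Krt6a, a type II keratin of the follicle's companion layer and of wounds, had 78, 51 and 48 counts against 6, 13 and 16 (-2.52, SE 0.344), and its reads cannot be cleanly separated from those of the near-identical Krt6b. Krt16, the partner of Krt6a, had too few counts to be fitted, with 19, 5 and 7 against 0, 0 and 3. Krt6b, chosen after its values were seen, had 18, 2 and 1 against 1, 1 and 0. Krt1, Krt16 and Krt6b were all highest in scramble replicate 1. Among the keratins outside the 4 sets, Krt80, a type II keratin of many differentiating epithelia, had 92, 157 and 121 counts against 44, 61 and 59 (-1.38, SE 0.237), and Krt222 had 3, 7 and 3 against 10, 4 and 5.

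**Figure D3:**
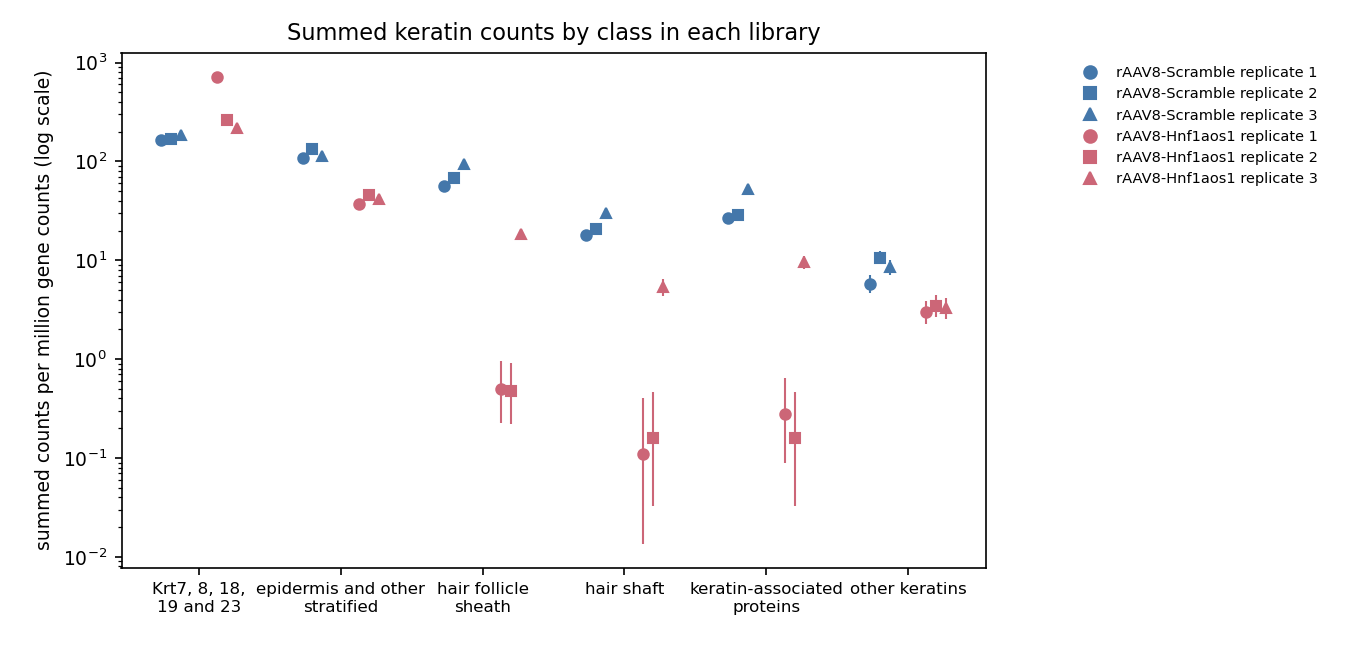
Summed counts of each keratin class as CPM (vertical log axis) in each library, with bars for the exact 95% binomial interval, which covers counting error only. The 3 hair classes of knockdown replicates 1 and 2 lie below 1 CPM, those of knockdown replicate 3 between 5.34 and 18.5, and the epidermal class of all 3 knockdown libraries between 37.2 and 45.8.

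The hair classes were nearly absent from 2 knockdown libraries and present in the third. Sheath keratins, shaft keratins and keratin-associated proteins together had 1669, 1812 and 2601 counts in the scramble libraries, against 16, 15 and 651 in knockdown replicates 1, 2 and 3. That is 101, 117 and 177 CPM (counts scaled to a gene total of 1000000) against 0.888 (95% exact binomial interval 0.507 to 1.44), 0.799 (0.447 to 1.32) and 33.4 (30.9 to 36.1), where the interval covers counting error only. After normalisation the knockdown libraries were at 0.698, 0.652 and 27.0% of the scramble mean, a log2 ratio of -3.41, and of -7.21 without knockdown replicate 3. The sums did not overlap between the groups, and the 2 lowest knockdown values were far from the one in replicate 3. Of the 80 members of these classes, 70, 64 and 71 had a count in the scramble libraries, against 12, 8 and 62 after knockdown. At least 5 counts were reached by 46, 44 and 51 of them in the scramble and by 0, 1 and 34 in the knockdown replicates. Scramble replicate 3 had the most counts in all 3 hair classes, which was not so for the epidermal keratins, where scramble replicate 2 had the most.

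Keratins of the inner root sheath, the layers that mould the growing hair, gave most of these counts. Krt71, a type II keratin of this sheath, had 363, 426 and 569 counts in the scramble libraries, against 1, 1 and 152 after knockdown. Krt25, a type I partner, had 167, 205 and 300 counts against 2, 0 and 83. Krt27, another type I partner, had 161, 145 and 204 against 3, 0 and 57. In all 3, knockdown replicates 1 and 2 held 3 counts or fewer, and replicate 3 stayed under the lowest scramble library. The log2 fold change was -3.36 (SE 1.30) for Krt71, -3.20 (SE 1.22) for Krt25 and -3.29 (SE 1.07) for Krt27. Without knockdown replicate 3 the knockdown group held 2, 2 and 3 counts of them, and the fitted values of -8.82, -7.81 and -6.88 rest on those few counts and on the prior count of the fit. The ratio of Krt71 to Krt25 in TPM was 1.99, 1.90 and 1.74 in the scramble libraries and 1.68 in knockdown replicate 3. Set against a basal epidermal keratin, the ratio of Krt71 to Krt5 in TPM was 1.42, 1.13 and 1.79 in the scramble libraries and 0.0106, 0.00818 and 1.10 in knockdown replicates 1, 2 and 3.

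In the other sheath keratins, too, knockdown replicate 3 had the most counts of its group. Krt72, a type II keratin of the sheath cuticle, had 81, 73 and 74 counts in the scramble libraries, against 1, 0 and 8 after knockdown, with a log2 fold change of -4.80 (SE 0.545). Krt73, also of the cuticle, had 36, 51 and 56 counts against 0, 0 and 23. Krt28, a type I keratin of the inner sheath, had 56, 46 and 69 against 0, 1 and 12. Knockdown replicate 3 thus held 8.89% of the scramble mean of Krt72 and 40.4% of that of Krt73, the lowest and the highest share among the sheath keratins with at least 30 counts. Krt26, the fourth type I keratin of the sheath, had 24, 44 and 59 counts against 0, 0 and 10. Krt75, a type II keratin of the companion layer, had 41, 64 and 55 counts against 2, 7 and 15, the most of any sheath keratin in knockdown replicate 2. Over the class the summed counts were 929, 1055 and 1386 in the scramble libraries, against 9, 9 and 361 after knockdown, a log2 ratio of normalised means of -3.40, and -7.14 without knockdown replicate 3.

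Hair shaft keratins showed the same split at lower counts. Krt33a, a type I keratin of the hair cortex, had 48, 44 and 64 counts in the scramble libraries, against 0, 0 and 12 after knockdown. Krt33b, its near-identical neighbour, had 19, 29 and 42 counts against 0, 0 and 8. Krt34, another type I keratin of the cortex, had 35, 33 and 50 against 0, 0 and 9. None of these 3 had a read in knockdown replicates 1 and 2. Krt31, a type I keratin of the cortex, had 17, 17 and 28 counts against 0, 0 and 6. Krt35, a type I keratin found at the start of shaft formation, had 19, 14 and 21 counts against 0, 0 and 9, which gave the smallest change of the fitted shaft keratins (log2 fold change -2.74, SE 0.818). The type II shaft keratins were alike. Krt81 had 23, 31 and 32 counts against 0, 0 and 8. Krt83 had 24, 23 and 39 against 1, 0 and 3, which gave the strongest change of the class (-4.50, SE 0.610). Krt86 had 17, 35 and 29 against 0, 0 and 8. These 3 are close copies of one another, so how reads were shared among them is uncertain. Krt87, another type II hair keratin, had 31, 29 and 58 counts against 0, 2 and 11. Over the class the sums were 295, 317 and 445 in the scramble libraries, against 2, 3 and 104 after knockdown, with 10 members fitted, and a log2 ratio of normalised means of -3.53, or -7.32 without knockdown replicate 3.

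Keratin-associated proteins, the matrix of the hair shaft, had 445, 440 and 770 counts in the scramble libraries, against 5, 3 and 186 after knockdown. Of the 55, 47, 40 and 47 had a count in the scramble libraries, against 5, 3 and 38 after knockdown. The log2 ratio of the normalised sums was -3.34, and -7.29 without knockdown replicate 3. Only 11 were fitted, with log2 fold changes from -4.48 to -3.01. Among the glycine- and tyrosine-rich members, Krtap7-1 had the most counts, 58, 61 and 99 in the scramble libraries, against 0, 1 and 14 after knockdown (log2 fold change -4.04, SE 0.772). Krtap8-1 had 23, 27 and 40 against 0, 0 and 9. Krtap6-1, which was not fitted, had 8, 12 and 21 against 0, 0 and 5. In all 3 the order was the same, with knockdown replicates 1 and 2 at 0 or 1 count.

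The sulfur-rich members gave the rest. Krtap3-1 had 46, 36 and 50 counts in the scramble libraries, against 0, 0 and 14 after knockdown. Krtap3-2, of the same family, had 10, 9 and 27 against 0, 0 and 2. Krtap11-1 had 27, 25 and 49 against 0, 0 and 5. Each was at 0 in knockdown replicates 1 and 2. Krtap1-5 had 22, 23 and 38 counts against 1, 0 and 7. Krtap1-4 had 10, 3 and 22 against 0, 0 and 3, and Krtap1-3 had 6, 13 and 17 against 0, 0 and 0. Krtap1-3 was thus the member with the most scramble counts, 36, that had none in any knockdown library, at least 14.4-fold lower when 3 counts over the group are taken as the floor. Krtap2-4 had 12, 7 and 9 counts against 1, 0 and 6. Krtap9-3 had 15, 16 and 28 against 0, 0 and 7. Krtap16-1 had 15, 15 and 21 against 0, 0 and 3. Both fitted members of these 3, Krtap9-3 and Krtap16-1, kept the groups apart. Krtap14 had 19, 26 and 38 counts against 0, 0 and 7. Krtap15 had 42, 33 and 76 against 0, 0 and 14. Krtap26-1 had 11, 2 and 11 against 0, 0 and 2, and there knockdown replicate 3 met the lowest scramble library.

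The Krtap4 family, whose genes are near-identical copies in a row on chromosome 11, held several members in which knockdown replicate 3 came close to the scramble libraries. Krtap4-1 had 13, 18 and 27 counts in the scramble libraries, against 0, 0 and 8 after knockdown. Krtap4-2 had 4, 8 and 19 against 0, 0 and 13. Krtap4-9 had 5, 8 and 7 against 0, 0 and 9. In Krtap4-2 and Krtap4-9 the count of knockdown replicate 3 lay within or above the scramble counts. Krtap4-16 had 6, 6 and 16 against 1, 1 and 8. Krtap4-7 had 5, 15 and 18 against 1, 0 and 4. Krtap4-6 had 5, 13 and 16 against 0, 0 and 3, and Krtap4-8 had 12, 8 and 16 against 0, 0 and 3. Outside the family, Krtap13-1 had 8, 5 and 12 counts against 0, 0 and 9 and also overlapped in knockdown replicate 3. With uniquely mapped reads, the split of counts within such families is uncertain.

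The remaining 52 members that can be named had at most 25 counts over the 6 libraries. Of these, 11 had none and 41 had at least 1, with no single library above 18 counts. Together they had 338 counts in the scramble group and 11, 10 and 48 in knockdown replicates 1, 2 and 3. Altogether 21 of the 110 members had a count in all 6 libraries.

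The level in each knockdown library was also compared member by member, as a share of the scramble mean, for members with at least 30 counts. In knockdown replicate 3 the median was 25.9% over 8 sheath keratins, 23.4% over 10 shaft keratins, 23.4% over 21 keratin-associated proteins and 35.2% over 10 epidermal keratins. In knockdown replicate 1 the medians were 0.491, 0, 0 and 22.6% in the same order, and in replicate 2 they were 0, 0, 0 and 27.1%. In replicate 3 the shares of the shaft keratins ran from 8.79 to 42.2% and those of the keratin-associated proteins from 0 to 105%.

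**Figure D4:**
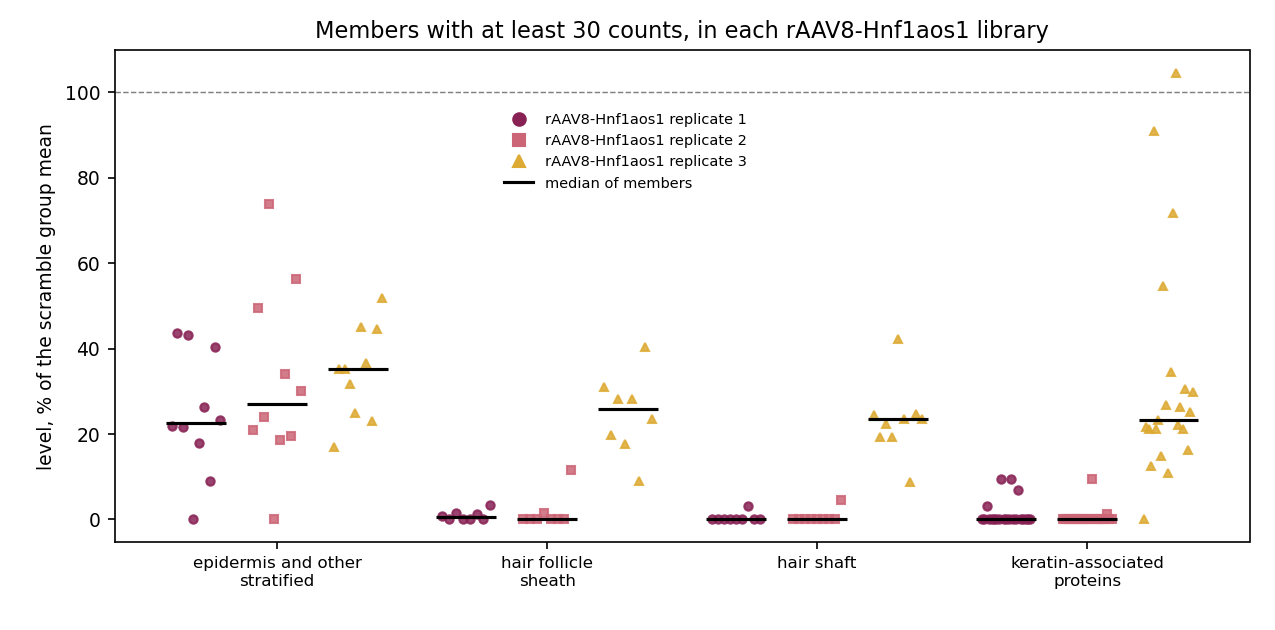
Level of each named member with at least 30 counts as a percentage of its scramble group mean (vertical axis) in each of the 3 rAAV8-Hnf1aos1 libraries, by class, with black lines for the median over members and a dashed line at 100%. Epidermal keratins lie near each other in all 3 libraries, with medians of 22.6, 27.1 and 35.2%, while hair members lie at or near 0 in replicates 1 and 2 and around 23 to 26% in replicate 3.

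Genes of skin and hair other than keratins were read in the same libraries. Of 42 on the list, 33 were tested and 32 were below 0. Their median log2 fold change was -1.62, beside -0.0004 over all tested genes. By edgeR 17 were called lower and 1 higher, where 3.23% of all tested genes were called lower and 3.09% higher. The list was written with earlier results of these data known, for tissues whose keratins were picked as lower. Its calls are a description. Sfn, the 14-3-3 protein of stratified epithelium, had 75, 88 and 90 counts in the scramble libraries, against 22, 27 and 33 after knockdown (log2 fold change -1.82, SE 0.228, adjusted p = 0.00254). Dsc1, a desmocollin of the upper epidermis, had 67, 80 and 74 against 19, 16 and 31 (-1.94, SE 0.267, adjusted p = 0.00361). Trp63, the transcription factor that marks basal epithelium, had 54, 87 and 102 against 30, 28 and 27 (-1.72, SE 0.281, adjusted p = 0.00826). These epidermal genes were lower in all 3 knockdown libraries. The adjusted p-values of this list describe genes of tissues already picked as lower and are no test of those tissues. Dmkn, dermokine, changed by -1.33 (SE 0.210, adjusted p = 0.00706) and Dsg1a, a desmoglein, by -1.58 (SE 0.249, adjusted p = 0.00762). Crnn, cornulin, could be fitted only through the scramble group, with 38, 39 and 42 counts against 2, 1 and 10 (-3.36, SE 0.510). Tchh, trichohyalin of the inner root sheath, had 961, 1141 and 1571 counts against 20, 25 and 385 and was not called (-3.33, SE 1.18, adjusted p = 0.203). Padi3, which modifies trichohyalin and was chosen after its values were seen, could be fitted only through the scramble group, with 30, 45 and 41 counts against 0, 0 and 8 (-4.00, SE 0.744). In Tchh and Padi3, as in the sheath keratins, knockdown replicate 3 had the most counts of its group, and without that library Tchh was called lower (-5.94, adjusted p = 0.000309). Perp, a desmosomal protein that is also made in liver, had the other high mean and was not called (-0.34, adjusted p = 0.0756). Tgm1, the transglutaminase of the cornified envelope, was the gene called higher (0.54, SE 0.142), with 140, 174 and 138 counts against 253, 267 and 236. The number of genes called on this list was 2 without scramble replicate 3 and 10 without scramble replicate 2 or without knockdown replicate 2. Calls over all genes fell in these fits too.

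Other tissues that can lie against a liver sample were checked by their own lists. All 14 skeletal muscle genes were tested and below 0, with a median of -1.32. Of the 14, 1 was called lower, where 3.23% of all tested genes were called lower. It was Actn3 of fast fibres (log2 fold change -1.95, SE 0.423, adjusted p = 0.0354 by edgeR). Their summed normalised counts were 1432, 5342 and 2965 in the scramble libraries, against 1694, 1453 and 649 after knockdown. The muscle sums overlapped between the groups, and knockdown replicate 3, which had the most hair keratin reads of its group, had the fewest muscle reads. The most abundant muscle genes were Myh4 (-1.63, adjusted p = 0.218) and Atp2a1 (-1.39, adjusted p = 0.270). Muscle calls moved with single libraries. There were 0 without scramble replicate 2, without scramble replicate 3 or without knockdown replicate 1, and 3 without scramble replicate 1. Calls over all genes fell in each of these fits. The 8 mesothelial genes summed to 38.0, 148 and 99.0 normalised counts in the scramble libraries, against 110, 87.4 and 106 after knockdown, with 3 tested and 0 called or under an unadjusted p of 0.05, and Muc16 and Gpm6a the most abundant. For 10 genes of pancreatic acinar cells, the sums were 13.3, 0 and 3.30 against 6.68, 20.9 and 10.9, and none passed the filter on low counts. Cela2a and Ctrb1 had the most, and Cela2a, a pancreatic elastase, had 2, 0 and 1 counts against 7, 22 and 7 and was called higher by DESeq2 and by edgeR without the filter. Of 6 blood genes 0 were called, with 0 at an unadjusted p under 0.05, and the sums ran from 3112 to 3747, with Alas2 and Hbb-bs the most abundant.

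Defining hepatocyte genes were abundant in every library. The 12 hepatocyte genes summed to between 1232160 and 1529380 normalised counts in every library, with Alb and Cps1 the most abundant. Alb had a log2 fold change of 0.06 (adjusted p = 0.841 by edgeR) and Cps1 one of 0.19 (adjusted p = 0.352). Fgb, a fibrinogen chain, was called higher (1.11, SE 0.170, adjusted p = 0.00682), as was Hpx, hemopexin (1.00, SE 0.217, adjusted p = 0.0361), and Tat, tyrosine aminotransferase, was called lower (-0.72, SE 0.116, adjusted p = 0.00766). These 3 calls among 12 genes stand beside 3.23% of all tested genes called lower and 3.09% higher. They fell to 0 without scramble replicate 3, where calls over all genes fell to 38 higher and 65 lower. The part that skin, hair or muscle in a sample had in the keratin counts was not tested.

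**Figure D5:**
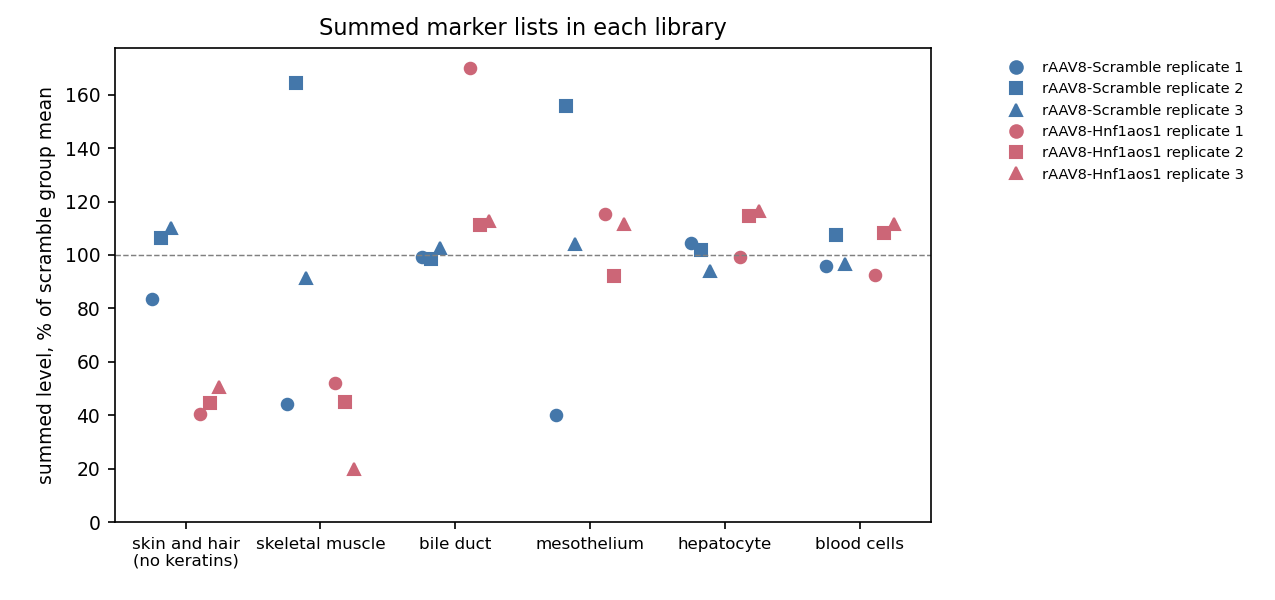
Summed normalised counts of marker gene lists as a percentage of the scramble group mean (vertical axis) in each library, with blue for rAAV8-Scramble and red for rAAV8-Hnf1aos1, and circles, squares and triangles for replicates 1, 2 and 3. The skin and hair list without keratins is lower in all 3 knockdown libraries, and the muscle and mesothelium lists overlap between the groups. The bile duct list is higher in all 3 knockdown libraries than in any scramble library, and highest in knockdown replicate 1.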

How the data were processed

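Liver RNA of 6 mice, 3 per group, was sequenced by the authors. The labels describe ribosomal RNA depletion and the study's methods a poly(A) kit, so the library type is uncertain. The authors trimmed reads, aligned them with STAR and counted uniquely mapped reads with featureCounts. The deposited raw counts are whole numbers per gene. The methods name GRCm38 and the submitters' processing notes GRCm39. The strand setting and annotation are not given in the sources used here. The authors also deposited TPM values and normalized counts, a signal that scales each library's counts by 1 factor. Their comparison table, with log2 fold changes, p-values and adjusted p-values from DESeq2, was not used. Of the sample columns, 0 were left unused.

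The 92 spike-in rows were removed. In edgeR 4.0.16 (R 4.3.3), counts were scaled by TMM, filtered by filterByExpr and compared with robust quasi-likelihood fits, with Benjamini-Hochberg adjustment over 16327 genes and calls at an adjusted p under 0.05. Normalised counts are TMM-scaled. In 3 simulated sets of this comparison over 16327 genes, 93.8% of the 200 genes given a log2 change of 2 were called, and 11.1% of calls were false. Chi-square values per gene between libraries of a group were 7.73 to 31.9; sampling noise alone would leave about 1. Totals of 14704746 to 19462398 counts make 3 counts the floor for a group at 0.

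Members and lists were chosen with earlier results of these data known. Values in every library were given for 42 fitted members and for the 15 others with the most counts of at least 10. From each list, up to 6 called genes by smallest p and the 2 with the highest mean were named. Epcam, Ppl, Hspb1, Plec, Padi3, Tgm1, Krt6b, Flg and Flg2 were chosen after their values were seen. 1 member and 1 gene of the lists are counted but not reported by name here. Alternatives were DESeq2 1.42.0 and its size factors, library totals, spike-in sizes, spike-ins kept, no filter, a minimum mean of 50 counts, a replicate block, the deposited TPM and normalized counts for sums, and each library left out. Figures used matplotlib 3.10.9.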

Additional observations from a re-analysis of the deposited data

How the results depend on the processing

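Counts of calls moved with the filter and with single libraries, over all genes too. With 1 library left out, 65 to 866 genes were called lower over all genes, instead of 527. For keratins called lower (27), no filter gave 41, a minimum mean of 50 counts 6, and leaving out 1 library 6 to 45. Keratins called higher ranged from 0 to 2. Among the lists, no filter gave 4 bile duct genes, 2 muscle genes, 1 other intermediate filament gene and 1 pancreas gene; a minimum mean of 50 gave 0 bile duct and 6 skin and hair genes; DESeq2 gave 3 muscle genes and 1 pancreas gene. Spike-in sizes gave 9 linker, 6 hepatocyte and 1 blood gene, with 3033 genes called higher and 360 lower over all genes. Library totals gave 1 other intermediate filament gene. With 1 library left out, calls ranged from 0 to 2 for bile duct, 2 to 21 for skin and hair, 0 to 3 for muscle, 1 to 7 for linkers, 0 to 2 for other intermediate filaments and 0 to 3 for hepatocyte genes. A lone left-out library leaves 2 in its group. Hnf1aos1 was called under DESeq2 (-0.737), without a filter (-0.744) under the replicate block (-0.769) and without knockdown replicate 3 (-1.007), and ranged from -1.007 to -0.600 with 1 library left out. Log2 ratios of the sums ranged, with 1 library left out, from 0.56 to 1.55 for liver keratins, -7.14 to -2.85 for sheath, -7.32 to -2.97 for shaft and -7.29 to -2.78 for keratin-associated genes; spike-in sizes gave -1.25 for epidermis. Of the member log2 fold changes under 14 alternatives, 528 stayed within the spread, 31 moved and none reversed. Causes were not tested.

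The replicate block gave 29 keratins called lower. Same-numbered libraries correlated at -0.0226 to 0.0231 in their deviations, so no pairing by number was seen. Correlations over all genes cannot exclude a pairing that touches few genes. Depth limits members under 10 counts, and a group of 3 limits the rest.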

Other observations

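Pigment cells of the hair follicle were looked at after the keratin values had been seen, so their values are a description. Of 10 melanocyte genes, 2 had enough counts to be fitted. Pmel, the melanosome fibre protein, had 16, 19 and 29 counts in scramble replicates 1 to 3 and 5, 6 and 8 in knockdown replicates 1 to 3, with a log2 fold change of -1.93 (SE 0.414). Dct, a melanin synthesis enzyme, had 27, 56 and 44 counts against 37, 37 and 49, with a log2 fold change of -0.25 (SE 0.299), and the groups overlapped.
Flg, the filaggrin precursor of the cornified layer, had 137, 25 and 26 counts in the scramble libraries, against 3, 9 and 29 after knockdown. It was highest in scramble replicate 1, the library with the highest Krt1, Krt16 and Krt6b. Flg was chosen after its values were seen, and other epidermal genes went the other way in that library. Flg2 had 88, 143 and 127 counts in scramble replicates 1 to 3, and Dsg1a had 92, 166 and 163. Krt77 was also lowest there among the scramble libraries.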
